A study of Arabidopsis thaliana with 8 samples.

Results

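Very long coding sequences (CDS) are the nuclear genes of Arabidopsis thaliana whose counted CDS spans at least 3000 bases. They were chosen by that length alone and comprised 1154 of 27205 nuclear loci, or 4.24%, in tables that list 27415 loci in all. Their CDS ran from 3000 to 16182 bases with a median of 3567. Seedlings of the Col-0 accession, 4 days old and grown in the dark on MS medium, were collected either without light or after 4 h of white light. From each condition, steady-state mRNA (purified and fragmented) and ribosome-protected mRNA (fragments left after RNase I digestion of polysome extracts) were sequenced. The 4 groups were therefore mRNA dark, mRNA light, ribosome-protected dark and ribosome-protected light, with 2 libraries each, numbered repeat 1 and repeat 2. All groups were wild-type whole seedlings. Nothing in the labels ties the repeats to separate cultures, so the tests measure the spread between these libraries.

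A ribosome binds an mRNA near its 5′ end, scans to a start codon, and then moves along the CDS while it makes the protein. Several ribosomes usually occupy a message together, and each shields a short fragment from nuclease, so the ribosome-protected reads of a CDS divided by its mRNA reads describe how densely the message is occupied. Both kinds of read were counted over the same CDS, so its length cancels in this ratio, and a log2 ratio of 0 is close to the typical gene by the scaling used. Long reading frames encode large enzymes, membrane transporters, chromatin factors, motor proteins, and nucleotide-binding leucine-rich repeat proteins (NLRs), the intracellular immune receptors of plants. In a dark-grown seedling, light starts greening, the assembly of the photosynthetic apparatus and the switch from growth on reserves.

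The members were spread over all 5 chromosomes, with 325, 138, 236, 185 and 270 on chromosomes 1 to 5. A gene model in the RefSeq annotation of TAIR10.1 was found for 1152 of them, and its CDS length equalled the counted one for 1072. Their median number of CDS exons was 13, against 3 in shorter nuclear genes, and 4.25% had a single CDS exon against 24.2%. The median GC content of the CDS was 43.1% against 44.2%, and at the last base of codons 38.8% against 42.3%. The median 5′ untranslated region was 125 bases against 72 and the 3′ untranslated region 205 against 171. RefSeq gene spans of 374 members (32.4%) overlapped another gene. No source used here states whether counting used strand, so in a shared stretch the reads of a gene and its neighbour cannot be told apart. These spans include introns and untranslated regions, and whether the CDS itself lies in the shared stretch was not examined. Genes described below that overlap another counted gene include GLDP1, GLU1, KAC1, AAO2, PGR3, PHYE, AGY1, DCL1, DCL2, INO80, TPL and CESA1. They also include NADK2, ACA11, XIF, XIJ, TAO1, ABCB4, ABCG33, ABCG42, AT1G48540 and AT1G21160. Within 30 bases of the length limit lay 42 members on the inner side and 47 genes on the outer side. The nearest inside were NADK2 and HAE (3000 bases) and RLP13 (3003), and the nearest outside were ECA3 (2997), AT1G04650 and AT1G06710 (both 2994). Their log2 ratios of ribosome-protected to mRNA reads in the dark were -0.94, -0.37 and -4.21 inside and -0.24, -0.24 and -1.29 outside; that of RLP13 rests on 2 and 9 ribosome-protected reads.

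The bases around the start codon are the place where a scanning ribosome commits to a reading frame, so they are shown for 9 members on which the results below turn. Each line runs 5′ to 3′ on the coding strand from 9 bases before the start codon, with the ATG in capitals, and was read from RefSeq TAIR10.1. The submitters' processing notes name TAIR 10, and each of these models has the CDS length of the counted model. The first 3 belong to members that rose with light, the next to a member that fell, and the last 5 to members with few ribosome-protected reads for their mRNA.
GUN5 (AT5G13630, 5 CDS exons, chr5:4392062-4392091, minus strand): agccgcaaaATGgcttcgcttgtgtattct
KAC1 (AT5G10470, 23 CDS exons, chr5:3297228-3297257, minus strand): ttggatgaaATGgccgatcagagaagtaaa
AGY1 (AT4G01800, 20 CDS exons, chr4:776114-776143, minus strand): ccgtcgacgATGatggtgtctccactctgc
ABCG35 (AT1G15210, 9 CDS exons, chr1:5236553-5236582, minus strand): gatctaaagATGgattacgatccagctcat
REV1 (AT5G44750, 23 CDS exons, chr5:18052660-18052689, plus strand): acaacaacaATGaagcgtagcttgggttca
LIG6 (AT1G66730, 19 CDS exons, chr1:24884982-24885011, plus strand): ttcctcatcATGgcctctgattccgccgga
AT5G40910 (4 CDS exons, chr5:16395498-16395527, plus strand): ctatctcttATGgctttttcatcaccgtct
AT2G39580 (10 CDS exons, chr2:16510531-16510560, plus strand): ccgaggaagATGacgacaccaatcaccggg
DCL1 (AT1G01040, 20 CDS exons, chr1:23510-23539, plus strand): tatagaattATGgtaatggaggatgagcct

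Plant start codons are commonly preceded, at the third base before the ATG, by a purine (A or G). Of 898 members with an unspliced window, 69.8% had a purine there, against 75.03% of 19667 shorter nuclear genes, and 41.1% against 50.9% had an A. A G directly after the ATG was found in 57.9% and 57.2%. Among members whose ratio in the dark was called lower (below), 63.4% of 71 windows had the purine, against 70.2% of 786 in the other tested members. These are shares of letters in a window, and no test was made of them.

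Of the 1154 members, 1068 (92.5%) passed edgeR's filter on low counts and were tested, against 71.5% of shorter nuclear genes; 13 had no CDS read in any library. The mRNA libraries held 30997341 to 37245819 CDS reads. The ribosome-protected libraries held 4843438 (dark) and 4617343 (light) in repeat 1 and 14974871 and 40972194 in repeat 2. A tested member had a median of 1534 to 1588.5 reads in the mRNA libraries. In ribosome-protected libraries the median was 130 (dark) and 122.5 (light) in repeat 1 and 366.5 and 925 in repeat 2, so the first repeat was the less precise. Of all CDS reads in mRNA libraries, members took 9.85% (dark) and 9.34% (light) in repeat 1, then 8.51% and 7.63% in the other repeat. Of ribosome-protected CDS reads they took 6.45% and 6.76%, then 5.76% and 6.28%, below the mRNA share in each of the 4 pairs of libraries. Reads in 3′ untranslated regions were 5.60% to 6.97% of the members' reads in mRNA and 0.0564% to 0.860% in ribosome-protected libraries.

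Very long coding sequences carried fewer ribosome-protected reads per mRNA read than other genes, in the dark and after light. Per kilobase of CDS, the median mRNA level of tested members was 12.3 CPM (counts scaled to the size of the library) in dark and 12.5 in light libraries of repeat 1, and 9.999 and 9.54 in repeat 2, against 10.8, 12.2, 11.6 and 12.6 in tested shorter genes. The median ribosome-protected level was 7.63, 7.35, 6.37 and 6.93 CPM per kb in the same order, against 9.78, 10.97, 10.5 and 11.6. The median log2 ratio of tested members was -0.51 in the dark (-0.54 in repeat 1, -0.43 in repeat 2), where the median of all 19823 tested genes was 0.01, and 78.8% of tested members lay below 0. After light it was -0.43 (-0.56 and -0.27), again against 0.01, with 75.8% below 0. Of 1068 tested members, 90 (8.43%) had a lower ratio and 0 a higher one in the dark by edgeR's quasi-likelihood test at an adjusted p under 0.05. Over all genes 4.66% were called, 3.87% lower and 0.787% higher. After light 64 (5.99%) were lower and 0 higher, against 2.46% of all genes, 2.36% lower and 0.101% higher. These shares were not particular to members. In the class just below the limit, from 2500 to under 3000 bases, 9.39% were lower in the dark and 5.76% after light. In that class 0 were higher in either condition. An unadjusted p under 0.05 in either direction was reached by 344 tested members in the dark (32.2%, against 24.5% of all genes) and 303 after light (28.4% against 18.9%). DESeq2 called 6 higher and 188 lower in the dark (5.09% and 8.22% of all genes, 13.3% in all) and 5 higher and 151 lower after light (2.41% and 6.13%, 8.55% in all). Of the members called lower, 52 were called in both conditions, which is 57.8% of the dark set and 81.2% of the light set.

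**Figure D1:**
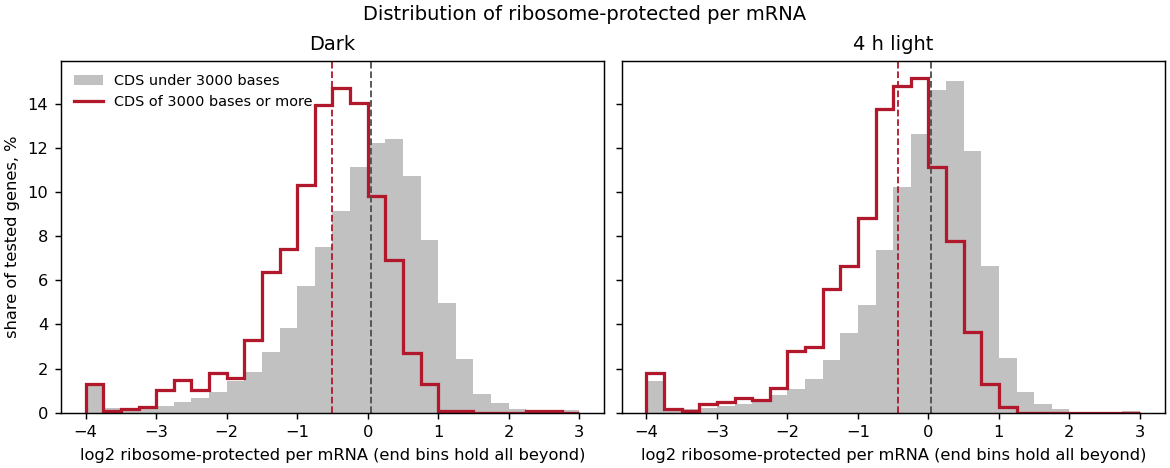
Distribution of the fitted log2 ratio of ribosome-protected to mRNA reads in the dark (left) and after 4 h of light (right); the horizontal axis is the log2 ratio in bins of 0.25 and the vertical axis the share of tested genes in percent, with dashed lines at the medians. The red outline of the 1068 tested long coding sequences lies to the left of the grey area of 18629 shorter nuclear genes, with medians of -0.51 and 0.04 in the dark and -0.43 and 0.04 after light.

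These calls depended on how the spread was estimated. The repeat numbers behaved as a pairing, and with the repeat as a block the dark ratio was lower in 467 and higher in 39 tested members (21.1% and 19.2% of all genes, 40.4% in all), and after light in 403 and 24 (18.4% and 14.2%, 32.6% in all). Without any 1 of the 8 libraries the dark ratio had 0 calls, while the median over tested members ran from -0.66 to -0.38. The light ratio had 39 calls without either ribosome-protected dark library and 0 without any of the other 6, and its median ran from -0.64 to -0.22. Fits to only the libraries of each ratio gave 0 calls for both.

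The lower ratio was part of a gradient with length that flattened above about 2500 bases. In the dark the median log2 ratio was 0.82 for a CDS under 300 bases, 0.57 from 300 to under 600, 0.22 from 600 to under 900 and 0.02 from 900 to under 1200. It was -0.12 in the class that starts at 1200 bases, -0.16 at 1500, -0.34 at 2000 and -0.45 at 2500. Among the long coding sequences it was -0.48 from 3000 to under 4000 bases (716 tested), -0.54 from 4000 to under 5000 (184), -0.59 from 5000 to under 7000 (129) and -0.47 at 7000 or more (39). After light the same 4 classes had medians of -0.44, -0.41, -0.54 and -0.16. Across 19697 tested nuclear genes Spearman's rho between CDS length and the dark ratio was -0.37, and within the 1068 tested members it was -0.04; these describe genes of the same libraries, which are not independent replicates. In 4 equal classes of mRNA level over tested nuclear genes, members had dark medians of -0.49, -0.65, -0.53 and -0.21 from the lowest to the highest class, against -0.03, -0.08, -0.01 and 0.31 for shorter genes.

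**Figure D2:**
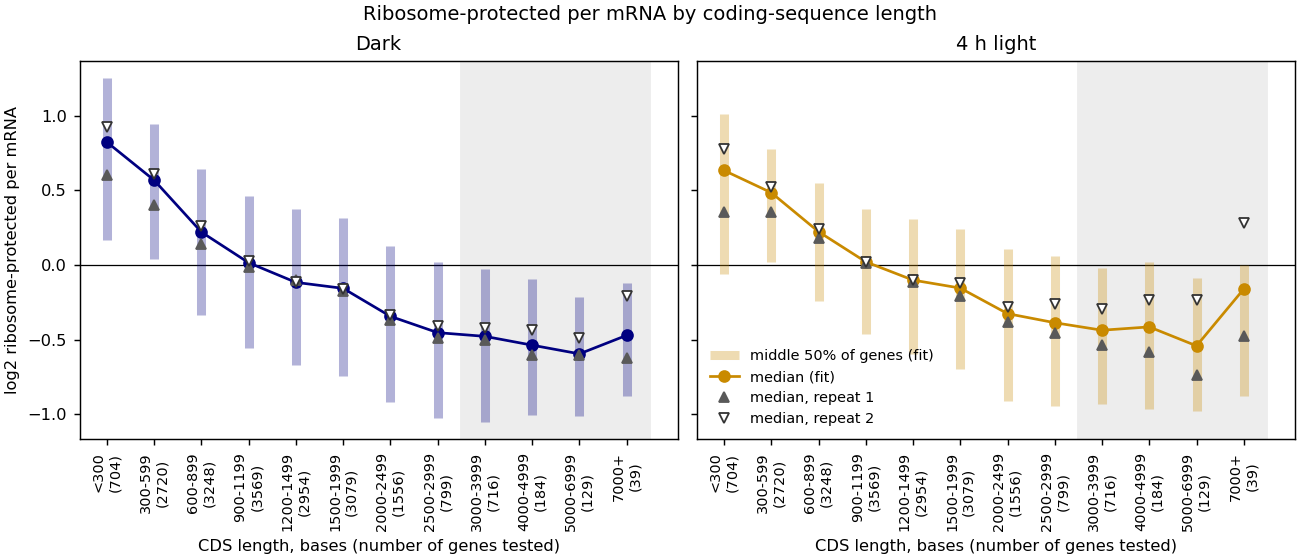
Log2 ratio of ribosome-protected to mRNA reads by CDS length, in the dark (left) and after 4 h of light (right); the horizontal axis gives classes of CDS length in bases with the number of tested genes, circles and line the median of the fit, thick bars the middle 50% of genes and triangles the medians within each repeat. The median falls from 0.82 to -0.45 below 3000 bases in the dark and lies between -0.59 and -0.47 in the shaded classes. The triangles of the repeats lie apart from each other in the class of 7000 bases or more. They also do so in other classes, such as 5000 to under 7000 bases after light (-0.73 and -0.23).

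The level of the longest messages also differed between repeats. Among tested members of 7000 bases or more, the median log2 difference of repeat 2 from repeat 1 was -0.54 in mRNA dark, -0.74 in mRNA light, -0.47 in ribosome-protected dark and -0.15 in ribosome-protected light. From 3000 to under 4000 bases it was -0.20, -0.27, -0.19 and -0.07, and under 3000 bases 0.05, 0.04, 0.08 and 0.11. In mRNA dark, 36 of the 39 longest were lower in repeat 2, against 47.1% of shorter genes. The ratio of the 39 longest moved with it: in the dark -0.62 in repeat 1 and -0.21 in repeat 2, and after light -0.48 and 0.28, so the light median of that class changed sign between repeats. The part of this repeat difference in the ratio of the longest members was not tested.

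The 5 longest tested members show this gene by gene. AT1G67120 (16182 bases, 75 CDS exons), a midasin-like protein whose yeast relative acts in assembly of the large ribosomal subunit, had mRNA at 3.67 and 1.01 CPM per kb in the dark and 4.86 and 1.38 after light (repeats 1 and 2). Its ribosome-protected level was 3.41 and 1.97, then 5.65 and 2.88. BIG (15297 bases), needed for normal polar auxin transport, had mRNA at 39.4 and 12.4 CPM per kb in the dark and 30.5 and 9.19 after light. Ribosome-protected BIG was steadier, at 27.3 and 20.4 and then 28.8 and 25.4 CPM per kb. In both genes every repeat 2 mRNA library was below both repeat 1 libraries, and the dark and light values interleaved. The log2 ratios in the dark of BIG, AT1G67120, AT5G23110 (a RING finger protein), AT4G17140 (a pleckstrin homology domain protein) and AT1G48090 (a calcium-dependent lipid-binding protein) were -0.12, 0.20, -0.59, 0.00 and -0.34. None of the 5 passed the test in any comparison, with adjusted p of at least 0.468 by edgeR (0.0552 with the block).

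The lowest ratios among members of at least median abundance included those of a DNA polymerase, a DNA ligase and an NLR. REV1, a DNA polymerase that copies past damaged bases, had mRNA at 28.9 and 27.5 CPM per kb in the dark and 19.99 and 21.3 after light. Its ribosome-protected level was 4.90 and 2.80, then 2.42 and 2.01 CPM per kb, and all 4 of these values were below the 4 mRNA values. The log2 ratio was -2.89 (SE 0.31, adjusted p = 0.0266, edgeR) in the dark and -3.23 (SE 0.32, adjusted p = 0.0282) after light. LIG6, a DNA ligase, had ribosome-protected levels of 1.33 and 0.838 CPM per kb in the dark against 8.73 and 7.21 in mRNA, and a dark log2 ratio of -2.92 (SE 0.37, adjusted p = 0.0266, edgeR). AT2G39580, a zinc finger C3H1 domain protein, had ratios of -2.87 in the dark and -2.85 after light, and AT5G40910, an NLR of the TIR class, -2.96 and -2.81. AT1G48540, annotated as an outer arm dynein light chain 1 protein, and AT1G21160, of the eIF-2 family, were called lower after light (-3.83 and -3.07) but not in the dark (-2.53 and -2.48, adjusted p of 0.056 and 0.0542, edgeR), and with the repeat as a block they were called in the dark too.

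Among 16 tested genes of small RNA and mRNA processing, 3 had a lower ratio in the dark and 2 after light (3.87% and 2.36% of all genes were lower), all of them Dicer-like genes, which cut double-stranded RNA. With the block 6 were lower in each condition (21.1% and 18.4% of all genes) and 1 was higher in the dark (19.2%). DCL1, the enzyme of microRNA biogenesis, had mRNA at 16.0 and 15.9 CPM per kb in the dark and 13.4 and 12.7 after light. Its ribosome-protected level was 3.57 and 2.39 CPM per kb in the dark and 4.41 and 3.82 after light, without overlap between the kinds of library. The log2 ratio of DCL1 was -2.43 (SE 0.26, adjusted p = 0.0266, edgeR) in the dark and -1.67 (SE 0.25, adjusted p = 0.0347) after light. DCL2 had ratios of -2.09 and -1.93, called in both conditions, and DCL4 -1.13 in the dark. DCL3, the other Dicer-like gene of the list, was tested and not called by edgeR in either condition. AGO1, which carries the small RNAs made by these enzymes, had a dark ratio of 0.13 (SE 0.27, adjusted p = 0.819, edgeR), so a low ratio was not shared by the list, whose median was -0.33. DCL1 and DCL2 each overlap a neighbouring counted gene.

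The large NLR list had the lowest median of the 15 lists. Of 79 members matched by annotation, 65 were tested, and their median log2 ratio was -1.08 in the dark (-0.85 and -1.26 in the repeats) and -0.79 after light. A lower ratio was called for 14 in the dark and 15 after light, with 0 higher, where 3.87% and 2.36% of all genes were lower. DESeq2 called 19 and 18 lower with 0 higher (8.22% and 6.13% of all genes lower), and the block 33 and 29 lower with 0 and 1 higher (21.1% and 18.4%). Their reads were few: the median tested NLR had 236 mRNA reads and 16 ribosome-protected reads in the dark libraries of repeat 1, and many lie in clusters of similar copies, between which the division of reads is uncertain. Chromatin and transcription genes (26 tested) had a dark median of -0.66 and 2 lower calls (14 with the block), INO80 (a chromatin remodeller, -2.18) and ATX2 (a histone methyltransferase), and the corepressor TPL stood at -0.91 without a call (adjusted p = 0.107, edgeR; 0.00398 with the block). At the other end, vesicle traffic and nuclear transport (12 tested) had a median of -0.03 (-0.09 and 0.11 in the repeats). Cellulose and callose synthases (23) had -0.09 (-0.31 and -0.01), and translation and TOR genes (5) -0.09 (-0.18 and -0.11). These, and most of the other lists, lay above the -0.51 of all tested members. The kinase TOR itself, a growth regulator encoded by 7446 bases, had a dark ratio of -0.05 (SE 0.45, edgeR adjusted p = 0.963), and translation factor EIF4G 0.17 (SE 0.45, edgeR adjusted p = 0.867).

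**Figure D3:**
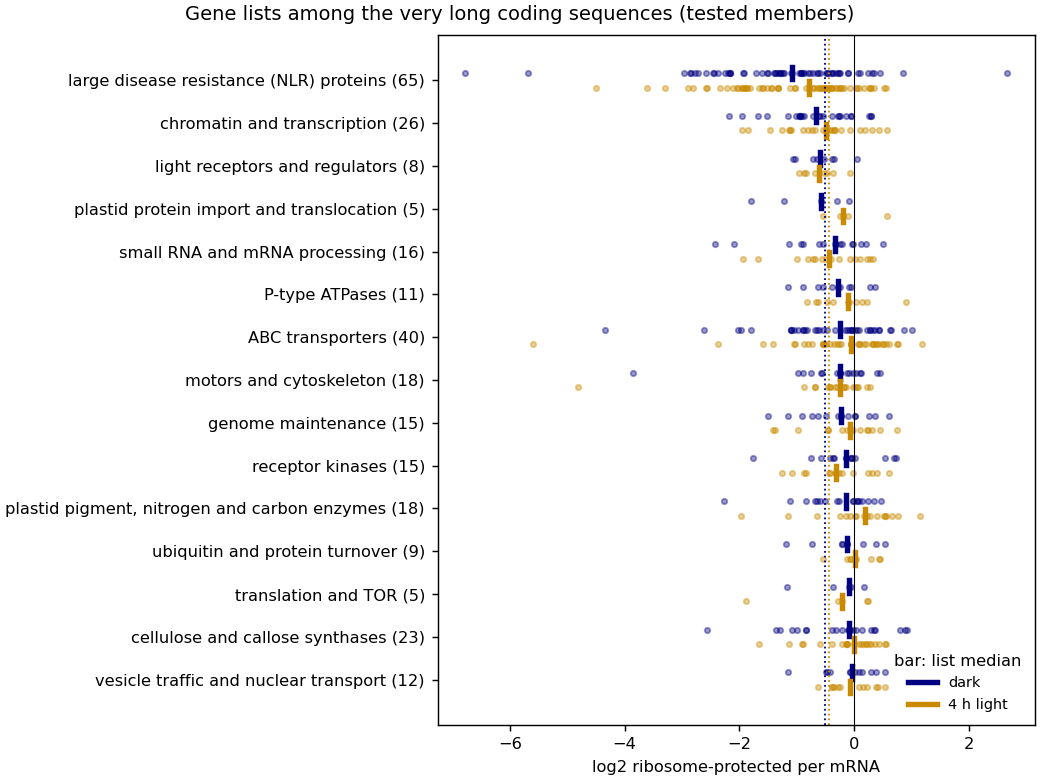
Log2 ratio of ribosome-protected to mRNA reads of tested long coding sequences in 15 gene lists, in the dark (blue) and after 4 h of light (yellow); each small dot is a gene, each vertical bar a list median, dotted lines the medians over all tested long coding sequences (-0.51 and -0.43), and numbers in parentheses the genes tested. The NLR list is lowest with -1.08 in the dark, and vesicle traffic highest with -0.03.

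The share of very long coding sequences called for a light change was below that of all genes in each of 3 fits, and the difference between the shares was not tested. In mRNA, 24 tested members rose and 13 fell (3.46%, edgeR, adjusted p under 0.05), against 4.78% of all genes, 3.34% up and 1.44% down. In ribosome-protected mRNA 42 rose and 17 fell (5.52%), against 6.84%, 4.71% up and 2.12% down. With the repeat as a block, 120 rose and 110 fell in mRNA, 21.5% of tested members (all genes 19.4% up and 14.2% down, 33.6% in all). In ribosome-protected mRNA 132 rose and 109 fell with the block, 22.6% of members (all genes 17.3% and 14.6%, 32.0% in all). DESeq2 called 39 up and 40 down in mRNA, 7.40% of members (all genes 6.69% and 4.58%, 11.3% in all), and 66 and 39 in ribosome-protected mRNA, 9.83% (all genes 8.28% and 5.2%, 13.5% in all). With fits on the mRNA libraries alone 0 members were called in mRNA (140 had an unadjusted p under 0.05 in the fit to all libraries). The mRNA calls were 0 without mRNA dark repeat 1, 1 without mRNA dark repeat 2, 4 and 3 without mRNA light repeats 1 and 2, 22 without either ribosome-protected dark library and 16 without either ribosome-protected light library. The ribosome-protected calls were 10 and 9 without ribosome-protected dark repeats 1 and 2, 20 and 8 without ribosome-protected light repeats 1 and 2, and 37 without either mRNA light library. All 24 members that rose in mRNA also rose in ribosome-protected mRNA, where they were 57.1% of the rises, and 10 of the 13 that fell in mRNA fell there too, 58.8% of the falls. The median log2 change of tested members was -0.07 in mRNA (all genes 0.01) and -0.05 in ribosome-protected mRNA (all genes -0.03). Within repeats 1 and 2 it was -0.06 and -0.09 in mRNA, and -0.14 and 0.03 in ribosome-protected mRNA. Of 168 tested members of 5000 bases or more, 0 were called in mRNA by edgeR (12 at an unadjusted p under 0.05; 1 up and 4 down by DESeq2), and 4 rose in ribosome-protected mRNA. In whole seedlings, a change in the number of cells that make an mRNA and a change in mRNA per cell cannot be told apart.

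**Figure D4:**
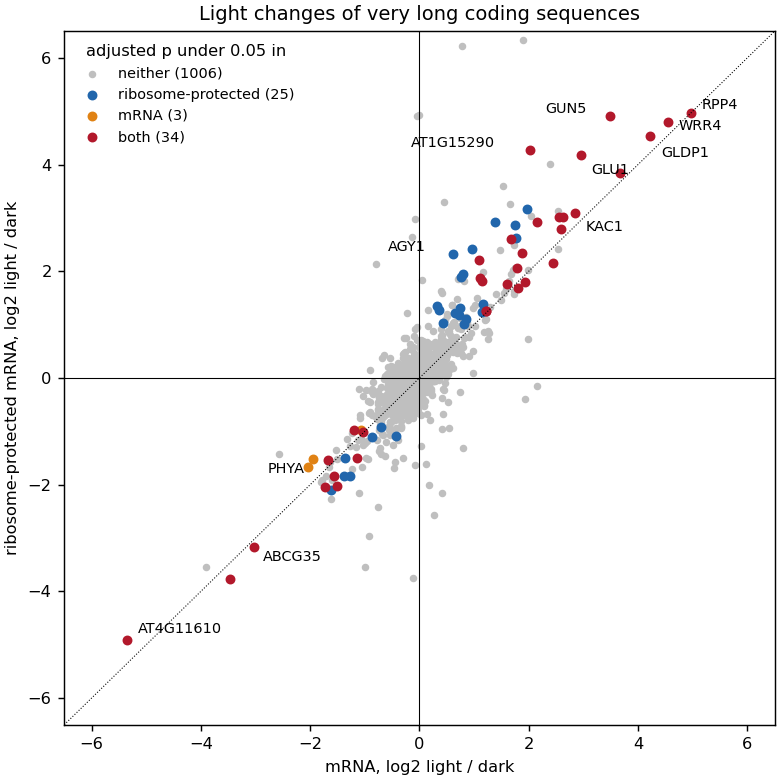
Light change of each tested long coding sequence; the horizontal axis is the fitted log2 light over dark of mRNA, the vertical axis that of ribosome-protected mRNA, and colours mark genes with an adjusted p under 0.05 (edgeR) in both, 1 or neither. The 34 genes called in both lie along the dotted line of equal change, with AT4G11610 (-5.35 and -4.92) at the lower end. WRR4 (4.55 and 4.79) lies near the upper end, and GUN5, AT1G15290 and AGY1 lie above that line. The height of the RPP4 point is a fitted value that rests on 0 and 1 ribosome-protected reads in the dark, and gives no fold.

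Of 18 tested enzymes of pigment, nitrogen and carbon metabolism, 5 rose in mRNA and the same 5 in ribosome-protected mRNA, and 0 fell (3.34% and 4.71% of all genes rose). The other 13 were not called, 5 of the 18 had an mRNA change below 0, and the median change was 0.38 in mRNA and 0.65 in ribosome-protected mRNA, against 0.01 and -0.03 over all genes. With the block 6 and 8 rose (19.4% and 17.3% of all genes), and by DESeq2 5 and 6 (6.69% and 8.28%). Of the 5, GUN5 and GLU1 act in plastids, GLDP1 and GLDP2 in mitochondria, and AAO2 is an aldehyde oxidase of the cytosol. GUN5, the H subunit of magnesium chelatase at the first committed step of chlorophyll synthesis, had mRNA at 26.4 and 47.9 CPM per kb in the dark and 396 and 439 after light. Its ribosome-protected level went from 22.7 and 39.3 to 676 and 1183 CPM per kb, so that dark and light libraries were far apart in both kinds. The log2 change of GUN5 was 3.49 (SE 0.54, adjusted p = 0.0211, edgeR) in mRNA and 4.91 (SE 0.58, adjusted p = 0.00755) in ribosome-protected mRNA.

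GLDP1 (AT4G33010; chr4:15926652-15931422, minus strand, 14 CDS exons), the P-protein of glycine decarboxylase in photorespiration, had mRNA at 29.98 and 57.7 CPM per kb in the dark and 912 and 732 after light, the highest mean mRNA level per kilobase of any tested member. Its log2 changes were 4.23 (SE 0.60, adjusted p = 0.017, edgeR) and 4.54 (SE 0.61, adjusted p = 0.0109). GLDP2, its paralog, rose by 2.15 and 2.93. GLU1, the ferredoxin-dependent glutamate synthase that assimilates ammonium in chloroplasts, rose by 2.95 in mRNA and 4.17 in ribosome-protected mRNA, from 15.6 and 32.7 to 456 and 415 CPM per kb in the latter. GLDP1 and GLDP2 are similar copies, and how reads that fit both were counted is not known here, so their division is uncertain.

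Some of the other risers act on or in plastids. KAC1, a kinesin-like protein of chloroplast movement along actin, had mRNA at 5.43 and 8.35 CPM per kb in the dark and 49.8 and 48.9 after light, and ribosome-protected reads at 5.47 and 6.19, then 48.2 and 51.3. Both kinds rose together, by 2.84 (SE 0.29, adjusted p = 0.00756, edgeR) and 3.09 (SE 0.29, adjusted p = 0.00449). PREP1, a protease that degrades the cleaved targeting peptides of imported proteins, rose by 2.62 and 3.01, and FUG1, a translation initiation factor of the plastid, by 2.56 and 3.02. The pentatricopeptide repeat proteins PGR3 and MRL1, which act on plastid transcripts, rose in ribosome-protected mRNA by 2.61 and 2.35. Starch synthase SS4 rose by 1.26 and the plastid envelope antiporter KEA1 by 1.79 in the same comparison. FUG1, PGR3, MRL1, SS4 and KEA1 were chosen after their values were seen, so the plastid genes named here are a selection of the risers. The naming rule also picked AT3G06880, a WD40 repeat protein, which rose by 3.68 in mRNA and 3.85 in ribosome-protected mRNA. It picked AT3G48200 too, whose ribosome-protected level went from 1.16 and 3.81 to 20.8 and 25.5 CPM per kb.

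Of 8 tested light receptors and regulators, 0 were called in mRNA and 1 rose in ribosome-protected mRNA by edgeR (4 and 3 at an unadjusted p under 0.05). Over all genes edgeR called 4.78% in mRNA and 6.84% in ribosome-protected mRNA. With the block 4 rose and 1 fell in mRNA (all genes 19.4% up and 14.2% down). In ribosome-protected mRNA 2 rose and 1 fell with the block (17.3% and 14.6%). DESeq2 called 2 up and 1 down in each (all genes 6.69% and 4.58% in mRNA, 8.28% and 5.2% in ribosome-protected mRNA). PHYA (AT1G09570; chr1:3095160-3100819, minus strand, 4 CDS exons), the phytochrome of far-red light and of dark-grown seedlings, had mRNA at 518 and 286 CPM per kb in the dark and 154 and 100 after light, and ribosome-protected reads at 361 and 267, then 111 and 85.4. Dark and light values of PHYA did not overlap, and the log2 change was -1.66 (SE 0.44, adjusted p = 0.095, edgeR; 0.000529 with the block) in mRNA and -1.67 (adjusted p = 0.077, edgeR; 0.00049 with the block) in ribosome-protected mRNA. SPA1, a partner of the light-signalling repressor COP1, was at 20.9 and 7.86 CPM per kb of mRNA in the dark and 95.4 and 71.2 after light, a log2 change of 2.53 (adjusted p = 0.0694, edgeR; 0.000507 with the block); in ribosome-protected mRNA the change was 2.42 (0.0648 and 0.00068). PHYE, a phytochrome of red light, was the member called in ribosome-protected mRNA, at 1.02 (SE 0.20, adjusted p = 0.0335, edgeR), and stood at 0.82 in mRNA (adjusted p = 0.0696, edgeR; 0.00267 with the block). PHYB changed by 0.57 and 0.26 and the clock gene GI by 0.75 and 0.62, none of them called; with the block the mRNA changes were, with adjusted p of 0.0234 and 0.034.

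Several of the named falls were of transporters. Of 40 tested ABC transporters, which move diverse compounds across membranes with ATP, 4 fell and 1 rose in mRNA (all genes 1.44% down and 3.34% up), and 2 fell and 2 rose in ribosome-protected mRNA (2.12% and 4.71%). DESeq2 called 9 down and 1 up in mRNA (all genes 4.58% and 6.69%) and 8 and 2 in ribosome-protected mRNA (5.2% and 8.28%). The block called 12 down and 4 up in mRNA (all genes 14.2% and 19.4%) and 9 and 7 in ribosome-protected mRNA (14.6% and 17.3%). ABCG35, a pleiotropic drug resistance transporter, went from 28.6 and 40.6 to 4.52 and 3.92 CPM per kb in mRNA and from 33.2 and 60.8 to 4.09 and 6.33 in ribosome-protected mRNA. Its log2 changes were -3.04 (SE 0.41, adjusted p = 0.015, edgeR) and -3.16 (SE 0.42, adjusted p = 0.0105). ABCB4, an auxin transporter of roots, changed by -2.03 in mRNA (adjusted p = 0.0487, edgeR) and by -1.68 in ribosome-protected mRNA (adjusted p = 0.0657; 0.000476 with the block). ABCG33 fell by 1.52 and 2.02 and ABCG42 by 1.94 in mRNA (-1.51 in ribosome-protected mRNA, adjusted p = 0.0697, edgeR; 0.00386 with the block), while ABCC2, a vacuolar transporter of conjugates, rose by 1.78 and 2.06.

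Of 11 tested P-type ATPases, the ion and lipid pumps, ACA11 (a calcium pump) fell by 1.20 in mRNA and 0.98 in ribosome-protected mRNA. With the block 3 and 4 of the 11 fell and 0 and 1 rose. Over all genes the block called 14.2% down and 19.4% up in mRNA, and 14.6% and 17.3% in ribosome-protected mRNA. Of 29 symbols listed for P-type ATPases, 14 matched no locus or several and were dropped, so that list is incomplete. ACA.l, annotated as an autoinhibited Ca2+-ATPase and not among its matched genes, fell by 1.72 and 2.04. The myosin XIF, of the class that moves organelles along actin, fell by 1.56 and 1.84, from 6.84 and 7.21 to 2.62 and 2.14 CPM per kb of mRNA. The largest fall was that of AT4G11610, a C2 domain protein, from 42.9 and 90.9 to 2.12 and 1.16 CPM per kb of mRNA, a log2 change of -5.35 (SE 0.61, adjusted p = 0.00982, edgeR). The listed receptor kinases (15 tested) had 0 calls by edgeR in either kind, with 1 and 2 at an unadjusted p under 0.05. DESeq2 called 1 fall in mRNA. With the block 5 of the 15 fell in mRNA and 4 in ribosome-protected mRNA, with 0 rises (all genes 14.2% and 14.6% down). AT1G34110, outside that list, was called lower by edgeR in both kinds. Its mRNA went from 19.4 and 20.9 to 7.96 and 4.74 CPM per kb. Its ribosome-protected level went from 13.6 and 18.5 to 5.80 and 5.39. The brassinosteroid receptor BRI1 stood at -0.55 and -0.82, with adjusted p of 0.484 and 0.24 by edgeR (0.0352 and 0.00714 with the block). CESA1, a cellulose synthase of the primary wall, was at 0.22 and 0.45, also without a call, and of 23 tested cellulose and callose synthases GSL12 alone rose in ribosome-protected mRNA (with the block 3 rose and 2 fell, and in mRNA 4 and 1).

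Other lists had few calls for light. Over all genes edgeR called 4.78% in mRNA and 6.84% in ribosome-protected mRNA, DESeq2 11.3% and 13.5%, and the block 33.6% and 32.0%. Of 26 tested chromatin and transcription genes and 16 of small RNA and mRNA processing, 0 were called in either kind of library by edgeR or DESeq2, with 2 and 0 at an unadjusted p under 0.05 in mRNA and 0 and 0 in ribosome-protected mRNA. With the block 3 chromatin genes fell in mRNA and 0 in ribosome-protected mRNA, and 1 small RNA gene fell in each. Motors and cytoskeleton (18 tested) had KAC1 alone (with the block also 1 fall in each kind), and plastid protein import (5) had AGY1 in ribosome-protected mRNA (with the block 1 rise in mRNA and 2 in ribosome-protected mRNA). Vesicle traffic (12), translation and TOR (5), genome maintenance (15) and ubiquitin (9) had 0 calls in both kinds; in mRNA 1, 1, 1 and 0 of them reached an unadjusted p under 0.05, and DESeq2 called 1, 1, 1 and 0. In ribosome-protected mRNA these counts were 0, 1, 1 and 0 by either measure. With the block vesicle traffic had 1 fall in each kind, translation 1 rise and 1 fall in mRNA and 1 rise in ribosome-protected mRNA, genome maintenance 1 and 2 rises, and ubiquitin 1 fall in mRNA. In the ratio, the lists not described above had at most 1 lower call each in the dark by edgeR (1 to 12 with the block). Those calls were for PHYE, ACC2 (a plastid acetyl-CoA carboxylase), AGY1, CALS1 (a callose synthase), ABCG41, the myosin VIIIB and ATM, the kinase that signals DNA breaks. Among all tested genes, 3.87% were lower in the dark by edgeR and 21.1% with the block.

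Of the 65 tested NLRs, 6 rose and 0 fell in mRNA and 7 rose and 1 fell in ribosome-protected mRNA (all genes 3.34% up and 1.44% down, then 4.71% and 2.12%). With the block 19 rose and 7 fell in mRNA (all genes 19.4% and 14.2%) and 18 rose and 8 fell in ribosome-protected mRNA (17.3% and 14.6%). DESeq2 called 8 up and 0 down in mRNA (all genes 6.69% and 4.58%) and 13 and 1 in ribosome-protected mRNA (8.28% and 5.2%). WRR4, which gives resistance to white rust, had 26 and 37 mRNA reads in the dark and 672 and 736 after light, and 4 and 5 ribosome-protected reads against 72 and 428. In CPM per kb of mRNA this was 0.255 and 0.291, then 7.05 and 5.80, a log2 change of 4.55 (SE 0.40, adjusted p = 0.00619, edgeR). SNC1 rose by 2.45 and 2.15, from 2.56 and 2.90 to 16.7 and 13.0 CPM per kb of mRNA. RPP4 had 14 and 11 mRNA reads in the dark and 394 and 368 after light, but 0 and 1 ribosome-protected reads in the dark, so no fold is given for the latter. SNC1, RPP4 and RPP5 are similar genes of 1 cluster on chromosome 4, and their reads may be divided among them wrongly.

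**Figure D5:**
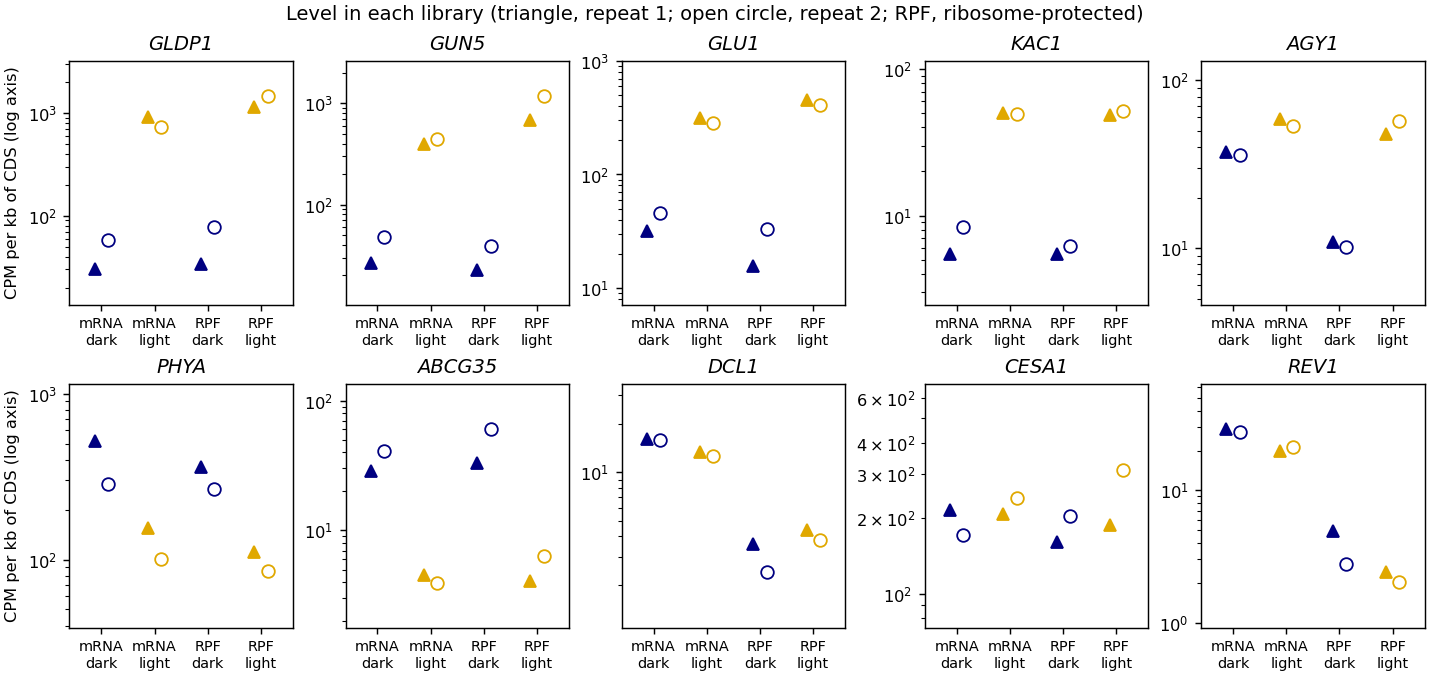
Level of 10 long coding sequences in each of the 8 libraries, in CPM per kb of CDS on a log axis that differs between panels; the horizontal axis gives mRNA and ribosome-protected (RPF) libraries in the dark (blue) and after 4 h of light (yellow), filled triangles repeat 1 and open circles repeat 2. GLDP1, GUN5, GLU1 and KAC1 rise in both kinds, PHYA and ABCG35 are lower after light, AGY1 moves from about 10 to about 50 in ribosome-protected reads, DCL1 and REV1 have low ribosome-protected values throughout, and the CESA1 values interleave.

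The light change of ribosome-protected reads per mRNA, tested as the interaction of light with the kind of library, was called for 0 of 1068 tested members by edgeR, as for 0 of all 19823 genes. At an unadjusted p under 0.05 there were 14 members (261 of all genes), and with the repeat as a block 0. DESeq2 called 2 members among 10 genes in all (0.0504%; 0.0454% higher and 0.00504% lower), both with more ribosome-protected reads per mRNA after light. AT1G15290, a tetratricopeptide repeat protein, had mRNA at 53.8 and 74.1 CPM in the dark and 274 and 248 after light, and ribosome-protected reads at 21.6 and 29.0, then 435 and 543. Its interaction was 2.27 (SE 0.46, adjusted p = 0.00457, DESeq2), 1.98 in repeat 1 and 2.48 in repeat 2, and 2.24 by edgeR (adjusted p = 1.00; 0.132 with the block).

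AGY1, the SecA motor that moves proteins into thylakoids, had mRNA at 117 and 113 CPM in the dark and 185 and 166 after light, and ribosome-protected reads at 34.1 and 31.7, then 149 and 178. Its mRNA change was 0.61 (adjusted p = 0.206, edgeR; 0.0197 with the block) and its ribosome-protected change 2.32 (SE 0.24, adjusted p = 0.00538). In the dark its ratio was -1.80 (SE 0.23, adjusted p = 0.0266, edgeR), and after light -0.10 (adjusted p = 0.857). The interaction of AGY1 was 1.74 (SE 0.31, adjusted p = 2.14e-04, DESeq2), with 1.46 and 1.93 in the repeats, and 1.70 by edgeR (adjusted p = 1.00; 0.132 with the block). AGY1 overlaps 2 neighbouring counted genes. GUN5 and GLU1 had interactions of 1.42 (SE 0.69) and 1.22 (SE 0.61), not called. The median interaction over tested members was 0.02, against -0.07 over all genes. Within the repeats the median of tested members changed sign, at -0.07 in repeat 1 and 0.13 in repeat 2.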

How the data were processed

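Per the file headers, the authors' deposited tables give whole-number read counts per locus in the 5′ untranslated region, the CDS and the 3′ untranslated region, with the exonic length of each, for 1 gene model per locus, unnormalized. The submitters' processing notes name the genome build TAIR 10. The aligner, the counting tool and whether strand was used were not given in the sources read here. Another 24 columns, normalized by the authors, were not used. Repeat 1 and repeat 2 stand in 2 tables, both of counts, so they were fitted together.

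CDS counts of all loci were fitted with edgeR 4.0.16 (R 4.3.3; quasi-likelihood test, filterByExpr, TMM factors of 0.824 to 1.26, 1 mean per group over all 8 libraries, two-sided, Benjamini-Hochberg over 19823 genes, threshold 0.05); each standard error is the log2 fold change over the root of F. CPM values use the TMM-scaled library size, and log values within a repeat a prior count of 2. The script was tested on simulated counts that had less spread between libraries than the data and no repeat effect, so recovery there does not carry over. DESeq2 1.42.0, other scalings, no filter, nuclear loci only, repeat blocks, fewer libraries and other length limits were the alternatives. An exact permutation test of 2 against 2 libraries cannot go below p = 0.333 and was not used.

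Same-numbered libraries deviated together (correlations across genes of 0.575 to 0.806 over all pairs of groups) and the repeats stand in separate tables, so the block was taken as a pairing and list counts and values of the genes described are printed with the block where it changes a call. The length rule uses no read count, but it, and so the members, and the 15 lists were chosen with earlier results of these data known. Of 276 listed symbols, 32 matched no locus or several and were dropped; NLRs were taken by annotation. Named genes were the largest called changes among members of at least median abundance with the same sign in both repeats (6 rises and 6 falls in each kind of library, 4 in each direction for the ratios and the interaction), the 5 longest, up to 2 per list, and 12 genes given by name; genes named outside this rule, chosen for their values, were those called in a list or by DESeq2 and those said to be so.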

Additional observations from a re-analysis of the deposited data

How the results depend on the processing

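The number of members called moved with the way the spread was estimated, in the order mRNA light change, ribosome-protected light change, dark ratio and light ratio (37, 59, 90 and 64 as reported). DESeq2 called 79, 105, 194 and 156. The replicate block gave 230, 241, 506 and 427, and a replicate block per kind of library 308, 288, 473 and 368. Fits to only the libraries of the contrast gave 0, 25, 0 and 0. A length limit of 2500 bases gave 69, 110, 165 and 110 calls, and 4000 bases 9, 18, 25 and 20, as more or fewer genes were counted. Without 1 library at a time, where a lone library is assumed to vary like the other groups, the counts ran from 0 to 22, from 8 to 41, from 0 to 0 and from 0 to 39, and the interaction kept 0; the light ratio kept 39 calls without either ribosome-protected dark library and 0 without any of the other 6. The interaction was called for 2 members by DESeq2 and for 0 under the other alternatives. The cause of these shifts was not tested.

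The median log2 mRNA change of tested members was -0.07, and -0.15 by DESeq2, by RLE size factors and by upper-quartile factors, and -0.11 with a limit of 4000 bases. Without 1 library it ran from -0.28 to 0.07, above 0 without mRNA dark repeat 1 (0.06) or mRNA light repeat 2 (0.067). The ribosome-protected change was -0.19 under upper-quartile factors, which moved the median of all genes by -0.14, and those factors split the calls into 33 up and 23 down against 42 and 17. It ran from -0.15 to 0.12 without 1 library. The interaction median ran from -0.12 to 0.26, the dark ratio from -0.66 to -0.38 and the light ratio from -0.64 to -0.22; a replicate block per kind gave -0.60 for the dark ratio. Without 1 library, 31 to 40 values of named genes lost their call, and with the replicate block 35 gained one. No named gene reversed a called direction under any alternative. Depth limits NLRs most, and ribosome-protected repeat 1 is the shallower.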

Other observations

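Not all of the most abundant long coding sequences were described above by name. After GLDP1, PHYA and GUN5, the highest mean mRNA levels per kilobase among tested members were those of CEV1 and CESA1, both cellulose synthases, and AT4G33150. AT4G33150, the bifunctional lysine-ketoglutarate reductase and saccharopine dehydrogenase of lysine breakdown, had mRNA at 542 CPM per kb in dark and 153 in light libraries of repeat 1, and at 101 and 31.6 in those of repeat 2. In ribosome-protected libraries AT4G33150 stood at 388 and 98.1, then at 74.2 and 22.1. Light values were below dark values within each repeat, but the light value of repeat 1 was above the dark value of repeat 2. The log2 change of AT4G33150 was -1.80 (SE 1.28, adjusted p = 0.535, edgeR) in mRNA, and with the repeat as a block the adjusted p was 0.000234.

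CEV1 had mRNA at 205 and 192 CPM per kb in the dark and 222 and 253 after light, and ribosome-protected reads at 175 and 233, then 211 and 340. Its log2 ratio in the dark was 0.04 (SE 0.35, adjusted p = 0.964, edgeR), above the median of tested members.

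A few members of low ribosome-protected count stood outside the naming rule, so they were chosen after their values were seen. The filter on low counts can keep a gene on its mRNA reads alone, so no conclusion is drawn from their low ratios. TAO1, an NLR, had 521 and 689 mRNA reads in the dark but 10 and 11 ribosome-protected reads, and 889 and 1150 against 3 and 16 after light. XIJ, a class XI myosin, had 149 and 433 mRNA reads in the dark against 0 and 1 ribosome-protected reads. HAC4, a histone acetyltransferase of the CBP family, had 474 and 451 mRNA reads after light against 1 and 4 ribosome-protected reads.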
